A study of Mus musculus with 6 samples.

Results

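The genes described here make, move, inactivate and sense prostaglandins: the cyclooxygenases Ptgs1 and Ptgs2, the prostaglandin E synthases Ptges, Ptges2 and Ptges3, the transporter Slco2a1, the inactivating dehydrogenase Hpgd, and the receptors Ptger2, Ptger4 and Ptgfr. They were chosen by gene symbol for their place in the pathway, with earlier results of these data known. All 10 were found among the 55860 genes of the deposited tables. Transcripts had been sequenced from cultured mouse ovarian granulosa cells, the somatic cells that surround the oocyte, of 2 genotypes with 3 libraries each: Il22r+/+ and Il22r-/-, which lack the receptor for the cytokine interleukin-22. Both genotypes were isolated on a density gradient and cultured for 12 h with serum before RNA was taken, with no hormone or cytokine named in the labels. The labels give neither the deleted exon, nor whether the deletion is limited to a cell type, nor the age of the mice, nor whether a library is 1 animal or a pool. The p-values therefore measure the spread between these libraries, which may be technical.

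Cyclooxygenases turn arachidonic acid into prostaglandin H2, terminal synthases turn that into prostaglandin E2 (PGE2) or another prostanoid, and the signal ends when the transporter takes it into a cell and 15-hydroxyprostaglandin dehydrogenase, the product of Hpgd, oxidises it. EP2 (Ptger2) and EP4 (Ptger4) respond to PGE2 and raise cyclic AMP through Gs, whereas the FP receptor (Ptgfr) responds to prostaglandin F2α and acts through Gq and calcium. In the ovary the luteinizing hormone surge induces Ptgs2 in granulosa cells of the preovulatory follicle, PGE2 acting through EP2 supports expansion of the cumulus around the oocyte, and prostaglandin F2α acting through FP brings about regression of the corpus luteum.

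Each library held 14.95 M to 18.12 M counted reads (M, mega-reads). Values given as 3 numbers are replicates 1 to 3 in that order. Il22ra1, assumed to be the targeted gene, was counted at 1, 5 and 4 reads in Il22r+/+ against 5, 2 and 0 in Il22r-/-, so these counts could not check the genotype labels. Il22r-/- replicate 3 stood apart on the second principal component. The granulosa transcription factor Foxl2 was present in every library, at 177 to 204 CPM (counts per mega-read after TMM scaling) in Il22r+/+ and 117 to 175 CPM in Il22r-/-. The summed level of 12 granulosa markers was 8343 to 9130 CPM and 8402 to 9129 CPM, but single markers moved in both directions, with 5 of 11 tested higher and 3 lower. Serpine2, a serine protease inhibitor, was 3.26-fold lower, whereas Cyp11a1, the side-chain cleavage enzyme of steroid synthesis, was 2.51-fold and the nuclear receptor Nr5a2 3.33-fold higher. Of those markers the aromatase gene Cyp19a1 was nearly absent, with 8, 3 and 25 reads against 0, 0 and 1, and Fshr, the follicle-stimulating hormone receptor, had 1, 7 and 5 reads against 95, 109 and 109. Markers of other cells also differed. Beside each count of markers here stand the shares of all tested genes, 23.6% higher and 22.1% lower. The summed level of 11 macrophage markers was 10.7 to 12.4 CPM in Il22r+/+ and 29.0 to 82.0 CPM in Il22r-/-, with 8 of 9 tested markers higher. The summed level of 9 mesothelial and ovarian surface markers was 549 to 556 CPM and 182 to 196 CPM, with 6 of 9 lower. The summed level of 8 theca and stroma markers was 348 to 445 CPM and 138 to 268 CPM, with 1 of 6 tested higher (Col1a2, log2 fold change 5.24, and 5.96 without Il22r+/+ replicate 1) and 1 lower (Dcn, -4.50). The summed level of 6 smooth muscle markers was 267 to 322 CPM and 357 to 577 CPM, with 4 of 6 higher and 1 lower. Most of that sum was Acta2 alone, at 254 to 307 CPM in Il22r+/+ and 318 to 546 CPM in Il22r-/-. The summed level of 8 endothelial markers was 3.86 to 6.28 CPM and 4.73 to 8.75 CPM, with 2 of 4 tested higher and 1 lower. Their part in the results below was not tested, and in bulk RNA fewer cells of a type and less RNA per cell cannot be told apart.

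In Il22r-/- cells the transcripts of both cyclooxygenases, of the microsomal PGE synthase, of the transporter and of EP2 were lower, while those of the inactivating dehydrogenase and of FP were several times higher. All 10 members had enough reads for the test, and 8 passed it at an adjusted p under 0.05 (edgeR quasi-likelihood test, Benjamini-Hochberg over 15227 genes): Hpgd, Ptgfr and Ptges3 rose, and Ptgs1, Slco2a1, Ptger2, Ptgs2 and Ptges fell. Of all tested genes 45.7% passed, 23.6% higher and 22.1% lower. In the same 8 members the genotypes did not overlap in any library, which held for 56.0% of all tested genes (28.7% higher, 27.3% lower). Changes of at least 2-fold that passed the test were found in 4 members (Hpgd, Ptgs1, Ptgfr and Slco2a1) and in 14.3% of all tested genes. The median log2 fold change, Il22r-/- minus Il22r+/+, was -0.29 over the members and 0.03 over all tested genes. By size of change Hpgd was the 261st, Ptgs1 the 389th and Ptgfr the 397th of the 15227 tested genes.

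**Figure D1:**
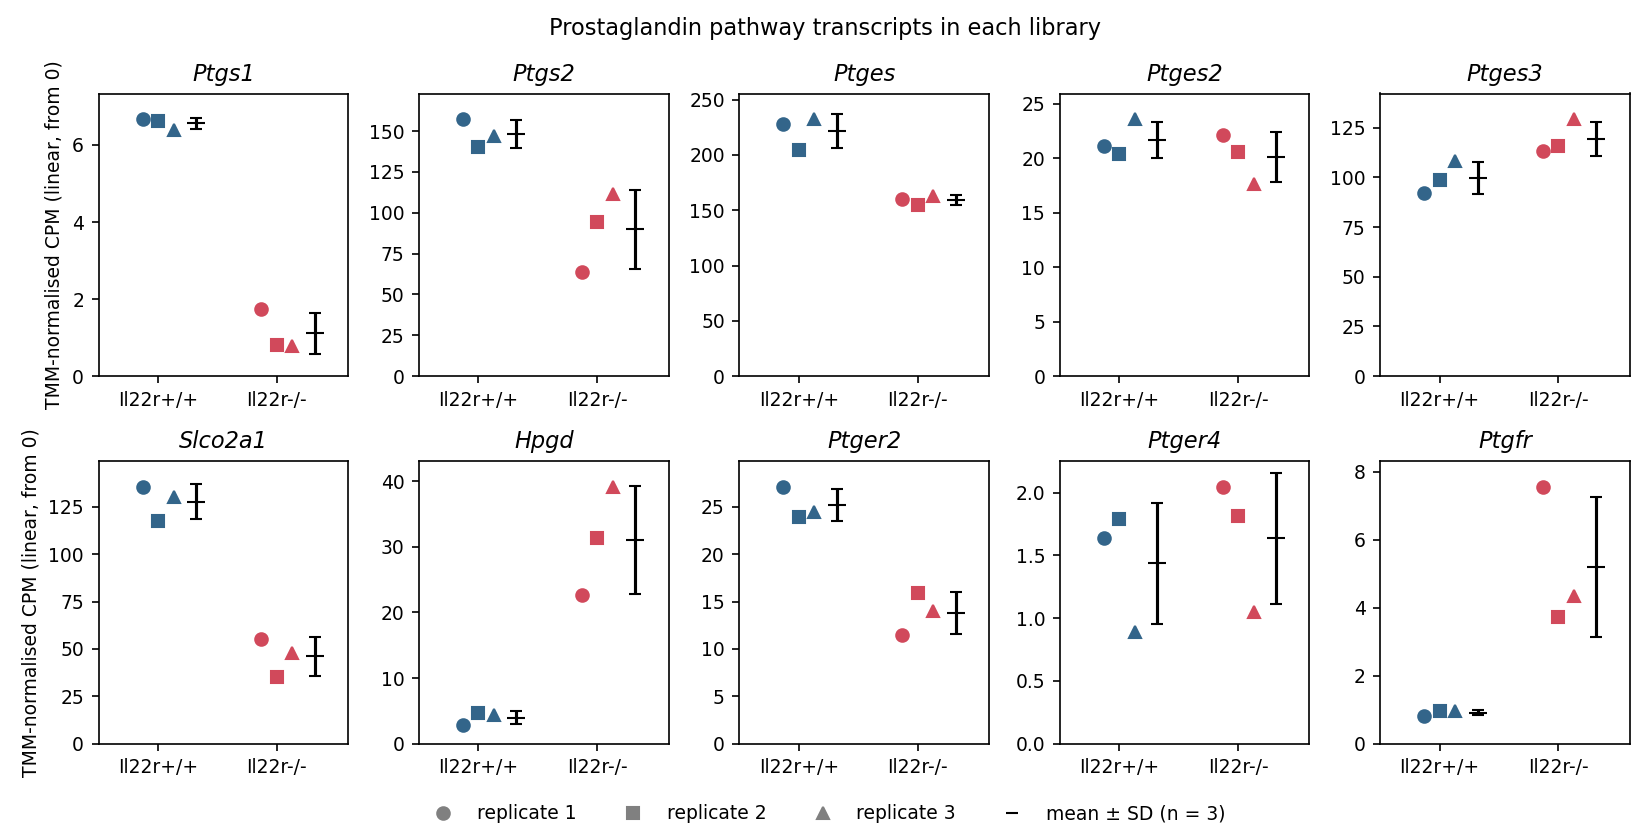
TMM-normalised CPM of the 10 genes in each of the 6 libraries, on linear axes that start at 0; circles, squares and triangles are replicates 1 to 3, and bars are the mean ± SD of 3 libraries. The genotypes do not overlap except for Ptges2 and Ptger4.

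**Figure D2:**
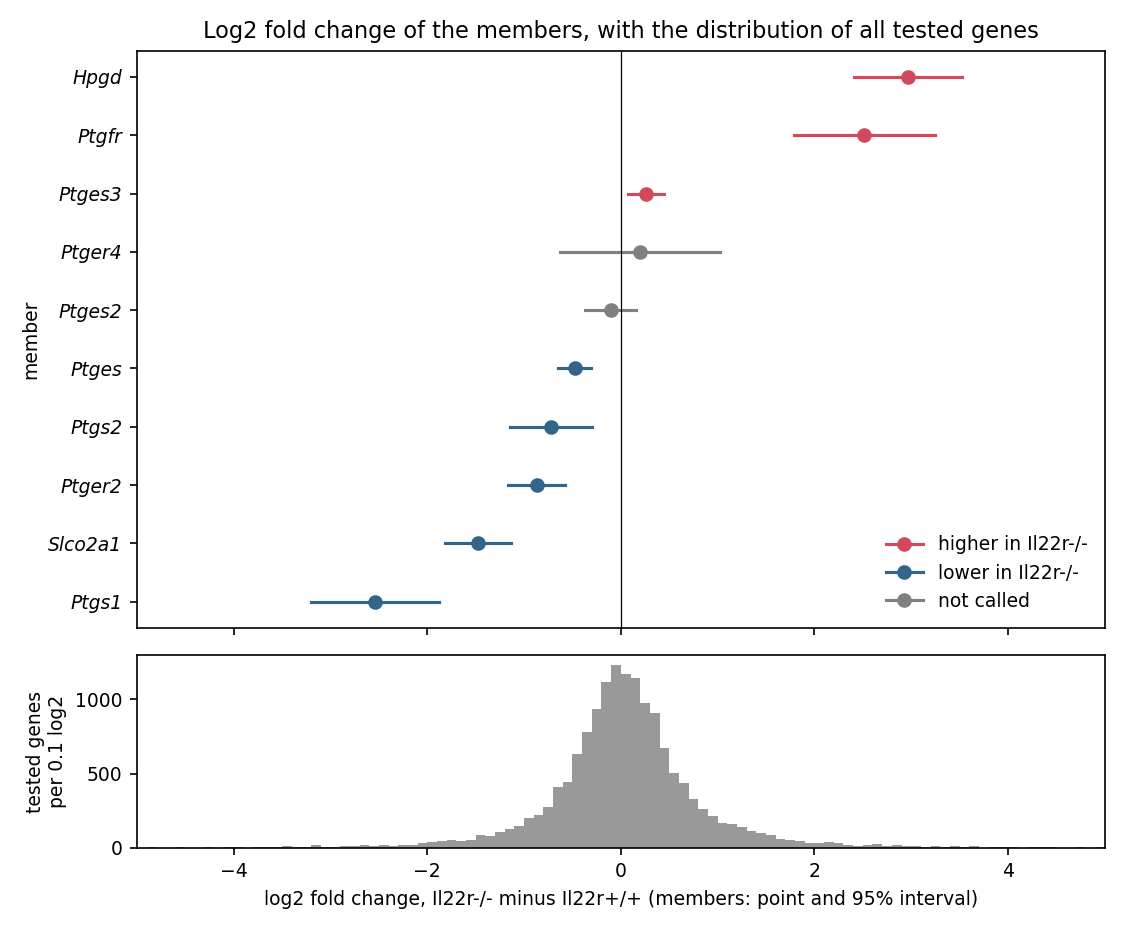
Log2 fold change of each gene with its 95% interval (upper plot), above the distribution of log2 fold changes of the 15227 tested genes in steps of 0.1, of which 45 lie outside the axis (lower plot). Hpgd (2.97) and Ptgfr (2.52) lie far to the right and Ptgs1 (-2.54) far to the left.

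The inducible cyclooxygenase fell less than the constitutive one. Ptgs2 (ENSMUSG00000032487, mm10 chromosome 1, 150100031 to 150108227, plus strand), the enzyme that the ovulatory surge induces, had 157, 140 and 147 CPM in Il22r+/+ and 63.9, 94.5 and 112 CPM in Il22r-/-. Every Il22r-/- library lay below every Il22r+/+ library, and replicate 1 was the lowest. The means were 148 ± 8.62 (SD, n = 3) and 90.0 ± 24.2 CPM, a log2 fold change of -0.72 ± 0.18 (standard error) with an edgeR adjusted p of 0.0133. Leaving out Il22r-/- replicate 1 or replicate 3 gave the ends of the range of the single-library omissions, -0.53 and -0.92, and the call held in each.

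Ptgs1 (ENSMUSG00000047250, chromosome 2, 36230426 to 36252272, plus strand), the cyclooxygenase that many cells express without a stimulus, had 6.67, 6.62 and 6.40 CPM in Il22r+/+ and 1.73, 0.800 and 0.788 CPM in Il22r-/-. In reads this was 114, 111 and 108 against 33, 15 and 12. The groups were far apart, the Il22r+/+ libraries were nearly equal, and Il22r-/- replicate 1 had more reads than the other two Il22r-/- libraries together. The log2 fold change was -2.54 ± 0.30 (5.83-fold lower, edgeR adjusted p = 7.30e-05). Of 9 mesothelial and ovarian surface markers 6 fell too and 3 did not pass the test. Upk1b, which fell, had 93.0, 106 and 88.1 CPM in Il22r+/+ and 4.25, 1.65 and 2.30 CPM in Il22r-/-. Whether Ptgs1 reads came from mesothelial or surface cells was not tested.

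Compared per length, Ptgs2 made up nearly all cyclooxygenase transcript in both genotypes. Its share of the summed FPKM of Ptgs1 and Ptgs2 (FPKM, reads per kilobase and mega-read as deposited) was 95.2%, 94.7% and 95.1% in Il22r+/+ and 96.9%, 99.0% and 99.2% in Il22r-/-. The summed FPKM fell from 35.0 ± 1.99 to 20.2 ± 5.37, and the 3 libraries of each genotype did not overlap. The ratio of Ptgs2 to Ptgs1 was 17.9 to 20.0 in Il22r+/+ and 31.3 to 120 in Il22r-/-, lowest in replicate 1 of the latter, where Ptgs1 was highest and Ptgs2 lowest.

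The promoters of both cyclooxygenase genes are shown because the genes moved the same way by different amounts. Each runs from 250 bases before to 50 bases after the RefSeq start (GRCm38.p6, 5′ to 3′ on the gene's strand, chr1:150099781-150100080 and chr2:36230176-36230475). Capitals mark matches on either strand to TTCNNNGAA (STAT), TGACGTCA (CRE), TGACG (the CRE core, within the former), CACGTG (E-box), TATAAA (core promoter), the kappa B motif and TTGCGCAA (C/EBP), the last added after the Ptgs2 sequence had been seen.
Ptgs2: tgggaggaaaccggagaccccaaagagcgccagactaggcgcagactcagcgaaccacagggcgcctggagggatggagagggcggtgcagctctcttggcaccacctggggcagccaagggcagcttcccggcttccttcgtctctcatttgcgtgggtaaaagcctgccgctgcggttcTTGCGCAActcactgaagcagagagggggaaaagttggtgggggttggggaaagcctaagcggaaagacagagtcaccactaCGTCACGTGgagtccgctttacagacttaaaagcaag
Ptgs1: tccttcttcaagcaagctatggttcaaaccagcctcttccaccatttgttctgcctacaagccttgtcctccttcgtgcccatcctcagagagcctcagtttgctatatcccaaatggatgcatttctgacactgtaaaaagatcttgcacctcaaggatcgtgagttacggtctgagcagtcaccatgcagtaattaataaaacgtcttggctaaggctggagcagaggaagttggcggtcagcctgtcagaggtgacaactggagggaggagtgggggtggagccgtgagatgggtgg
In Ptgs2 the C/EBP letters begin 69 bases before the start, and a reverse-strand TGACG at position 14 overlaps a CACGTG at position 17. TTGCGCAA is in 0.18% of the 32851 RefSeq promoters of this length, CACGTG in 7.15% and TGACG in 20.81%. Ptgs1 holds none of the 7 motifs in this window. TTCNNNGAA, in 8.3% of all promoters, was in none of the 10 genes' windows, which says only that these letters are not there.

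The 3 PGE synthases did not move together. Ptges (ENSMUSG00000050737, chromosome 2, 30889471 to 30929863, minus strand), the microsomal synthase that is usually induced along with Ptgs2, had 228, 204 and 232 CPM in Il22r+/+ and 160, 155 and 163 CPM in Il22r-/-. The Il22r-/- libraries were close to each other and below all Il22r+/+ libraries, with a log2 fold change of -0.48 ± 0.08 (1.39-fold lower, edgeR adjusted p = 0.000592). Ptges2 (ENSMUSG00000026820, chromosome 2, 32395896 to 32405772, plus strand), the membrane-associated synthase, had 21.1, 20.4 and 23.6 CPM against 22.2, 20.5 and 17.7 CPM. The genotypes overlapped, and the log2 difference of -0.11 had a 95% interval of -0.37 to 0.15 (edgeR adjusted p = 0.488).

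Ptges3 (ENSMUSG00000071072, chromosome 10, 128058954 to 128077272, plus strand) encodes p23, a co-chaperone of Hsp90 that is also described as a cytosolic PGE synthase. It had 92.4, 98.8 and 108 CPM in Il22r+/+ and 113, 116 and 129 CPM in Il22r-/-, with no overlap but a small distance between the highest and the lowest of the groups. Its log2 fold change of 0.26 ± 0.08 passed the edgeR test (adjusted p = 0.0289) and lost its call in 6 of 15 alternatives, among them the DESeq2 Wald test (adjusted p = 0.0505) and edgeR without Il22r+/+ replicate 1 (0.139), in a range from 0.00398. The processed pseudogene Ptges3-ps, on chromosome 6, was counted at 505, 491 and 453 reads in Il22r+/+ against 644, 693 and 620 in Il22r-/-. Reads that the gene and this copy share were not resolved here, so the value of Ptges3 is uncertain.

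Per length, Ptges was the most abundant of the 10 members in Il22r+/+, with 57.9 FPKM, and Ptges3 in Il22r-/-, with 54.4 FPKM. The share of Ptges in the summed FPKM of the 3 synthases was 51.7% to 55.8% in Il22r+/+ and 40.1% to 42.3% in Il22r-/-, and the mean share of Ptges2 was 4.05% and 4.06%. The sum itself was 109 ± 6.62 against 99.4 ± 5.05 FPKM, and its ranges overlapped.

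Transport and breakdown changed in opposite directions. Slco2a1 (ENSMUSG00000032548, chromosome 9, 102988712 to 103096002, plus strand), the carrier that brings prostaglandins into the cell, had 136, 117 and 130 CPM in Il22r+/+ and 55.2, 35.0 and 48.0 CPM in Il22r-/-. The highest Il22r-/- library, replicate 1, was at less than the lowest Il22r+/+ library, replicate 2. The log2 fold change was -1.47 ± 0.15 (2.77-fold lower, edgeR adjusted p = 7.56e-05). Slco2a1 is also expressed by endothelium, whose markers had few reads in both genotypes and moved in both directions. Tek, the most abundant of them, was lower, with 52, 65 and 75 reads in Il22r+/+ against 52, 39 and 33 in Il22r-/- (log2 fold change -0.70 ± 0.25, edgeR adjusted p = 0.0392). Cdh5 had 2, 0 and 0 reads against 20, 38 and 4, too few for the test. Pecam1 had 6, 6 and 12 reads against 19, 32 and 17, and Kdr had 3, 0 and 4 reads against 12, 22 and 10, both higher. These 3 calls did not hold throughout: that of Tek was lost in 7 of 15 alternatives (adjusted p = 0.0340 to 0.138), 4 of them without Il22r+/+ replicate 2 or 3 or Il22r-/- replicate 2 or 3, that of Pecam1 in 4 (0.0144 to 0.0962), 3 of them without Il22r+/+ replicate 1 or 2 or Il22r-/- replicate 2, and that of Kdr in 2 of 14 (0.00226 to 0.123), 1 of them without Il22r-/- replicate 2. The part of endothelial RNA in the fall of Slco2a1 was not tested.

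Hpgd (ENSMUSG00000031613, chromosome 8, 56294585 to 56321043, plus strand), which oxidises PGE2 and prostaglandin F2α to forms that their receptors hardly bind, changed by more than any other member. Its reads were 48, 78 and 74 in Il22r+/+ against 431, 588 and 596 in Il22r-/-, or 2.81, 4.65 and 4.38 CPM against 22.6, 31.4 and 39.1 CPM. The lowest Il22r-/- library was at several times the highest Il22r+/+ library. The means were 3.95 ± 0.997 and 31.1 ± 8.26 CPM, a log2 fold change of 2.97 ± 0.25 (7.84-fold higher, edgeR adjusted p = 2.04e-05), and leaving out single libraries gave 2.75 to 3.15. Of 9 tested macrophage markers 8 rose too, among them Lyz2, with 30.9, 43.5 and 14.0 CPM in Il22r-/- replicates 1 to 3. Whether macrophage RNA had a part in the Hpgd level was not tested.

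The promoters of the transporter and the dehydrogenase are shown as the pair that moved apart, with the same motifs in capitals (GRCm38.p6, chr9:103008237-103008536 and chr8:56294302-56294601, both on the plus strand).
Slco2a1: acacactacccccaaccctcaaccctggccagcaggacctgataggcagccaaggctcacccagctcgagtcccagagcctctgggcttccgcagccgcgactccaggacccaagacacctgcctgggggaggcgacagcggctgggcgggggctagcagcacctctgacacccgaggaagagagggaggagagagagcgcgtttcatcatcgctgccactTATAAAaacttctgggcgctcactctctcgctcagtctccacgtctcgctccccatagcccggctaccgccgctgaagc
Hpgd: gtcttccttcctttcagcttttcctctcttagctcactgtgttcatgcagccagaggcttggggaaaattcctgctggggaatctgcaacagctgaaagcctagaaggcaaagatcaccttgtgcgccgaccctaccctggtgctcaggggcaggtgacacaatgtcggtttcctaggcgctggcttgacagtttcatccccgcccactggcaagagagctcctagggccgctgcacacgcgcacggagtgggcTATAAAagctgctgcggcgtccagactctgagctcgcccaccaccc
Both hold TATAAA, which is in 13.62% of all promoters and in no other member. It begins 29 bases before the RefSeq start of Slco2a1. In Hpgd it begins at position 5 after the RefSeq start, which lies 33 bases before the start in the deposited table. The RefSeq start of Slco2a1 lies 19775 bases inside the deposited gene, so this window belongs to one of its transcript starts.

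Within each library the balance of synthesis to breakdown transcripts shifted. The ratio of Ptgs2 to Hpgd in FPKM was 20.6, 11.1 and 12.3 in Il22r+/+ and 1.04, 1.11 and 1.05 in Il22r-/-. Per length, transcript of the inducible cyclooxygenase thus exceeded that of the dehydrogenase by at least 11.1-fold in every Il22r+/+ library. In every Il22r-/- library the levels were nearly equal per length, whereas mean CPM were 90.0 for Ptgs2 and 31.1 for Hpgd. The log2 ratio fell by 3.73, from 3.82 ± 0.48 to 0.09 ± 0.05 (SD, n = 3 each), with a two-sided exact permutation p of 0.1, the smallest that 3 against 3 libraries can give. Although Ptgs2 and Hpgd each varied between the Il22r-/- libraries, both were lowest in replicate 1 and highest in replicate 3. The ratio of Slco2a1 to Hpgd was 3.14, 3.69 and 6.0004 in Il22r+/+ from lowest to highest and 0.139 to 0.303 in Il22r-/-.

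**Figure D3:**
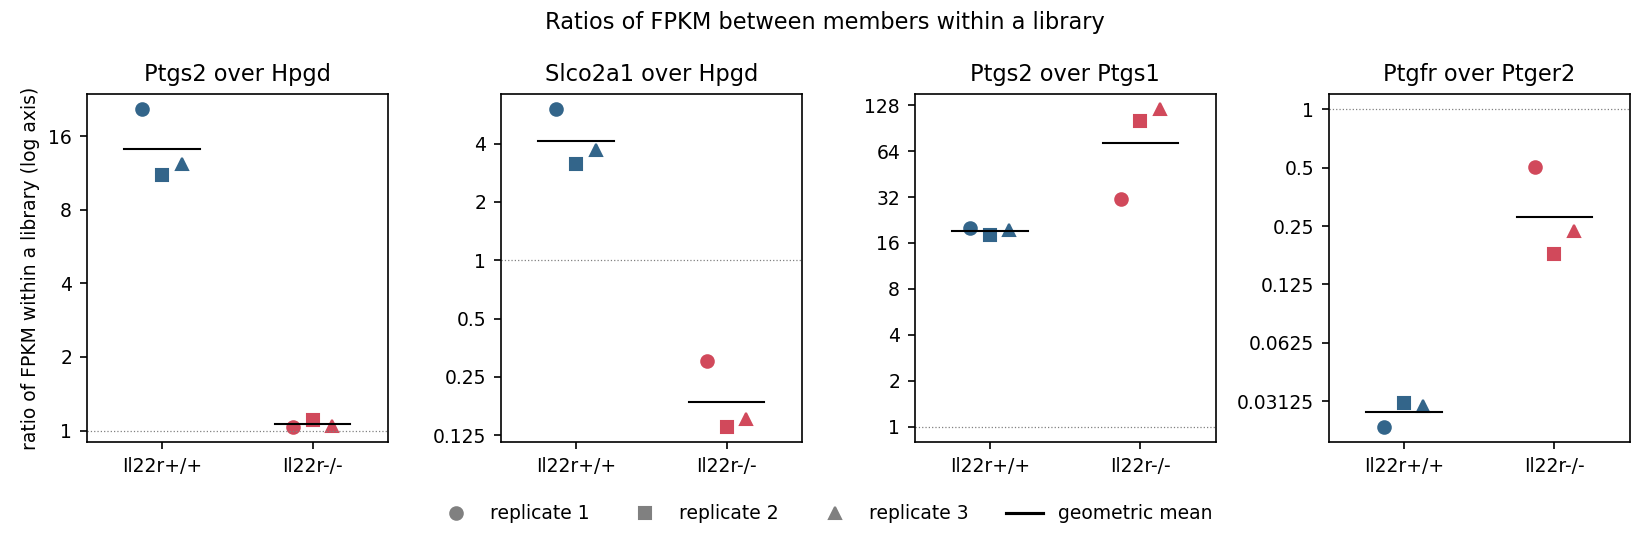
Ratios of deposited FPKM between pairs of genes within each library, on log axes; circles, squares and triangles are replicates 1 to 3, the line is the geometric mean of 3 libraries and the dotted line marks a ratio of 1. The ratio of Ptgs2 to Hpgd lies between 11.1 and 20.6 in Il22r+/+ and between 1.04 and 1.11 in Il22r-/-.

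Among the receptors EP2 fell and FP rose. Ptger2 (ENSMUSG00000037759, chromosome 14, 44988195 to 45003820, plus strand) had 27.1, 24.0 and 24.5 CPM in Il22r+/+ and 11.4, 15.9 and 14.1 CPM in Il22r-/-. The groups did not overlap, and the log2 fold change was -0.87 ± 0.13 (1.83-fold lower, edgeR adjusted p = 0.000423). Ptger4 (ENSMUSG00000039942, chromosome 15, 5206661 to 5244187, minus strand), the other Gs-coupled PGE2 receptor, was scarce, with 28, 30 and 15 reads against 39, 34 and 16. Replicate 3 was the lowest library in both genotypes, and the log2 difference of 0.20 had a 95% interval of -0.63 to 1.02 (edgeR adjusted p = 0.694) that includes changes in both directions, so none was detectable at this depth. Gm15937 on the other strand covers 15.27% of the Ptger4 exon length, and the strand setting of the counting is not given in the sources used here.

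Ptgfr (ENSMUSG00000028036, chromosome 3, 151796502 to 151837630, minus strand), the FP receptor, was counted at 14, 16 and 16 reads in Il22r+/+ against 144, 70 and 66 in Il22r-/-. In CPM this was 0.819, 0.955 and 0.948 against 7.56, 3.73 and 4.34, with Il22r-/- replicate 1 well above the other two. The log2 fold change was 2.52 ± 0.33 (5.72-fold higher, edgeR adjusted p = 0.000151), and leaving out single libraries gave 2.13 to 2.69. Of 6 smooth muscle markers 4 were also higher in Il22r-/- and 1 was lower. Myh11 (log2 fold change 4.29, and 5.04 without Il22r+/+ replicate 1) and Actg2 (4.97) rose most. In Il22r-/- Myh11 had 12.0, 20.0 and 9.79 CPM and Actg2 17.3, 22.2 and 11.2 CPM. Tagln fell from 6.35 ± 1.17 to 3.25 ± 0.374 CPM, and Cnn1 did not pass the test (edgeR adjusted p = 0.555). The part of smooth muscle RNA in the rise of Ptgfr was not tested.

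The make-up of the receptor transcripts changed with them. In summed FPKM of the 3 receptors Ptger2 had 91.8% to 94.5% in Il22r+/+ and 60.8% to 78.8% in Il22r-/-, while Ptgfr had 2.16% to 2.81% and 14.2% to 30.7%. The ratio of Ptgfr to Ptger2 was 0.0231, 0.0305 and 0.0297 in Il22r+/+ and 0.506, 0.180 and 0.236 in Il22r-/-, so EP2 transcript remained the more abundant in each library. The sum of the 3 fell from 5.35 ± 0.351 to 3.71 ± 0.187 FPKM without overlap between the genotypes.

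The order of the members by mean FPKM also changed. FPKM divides reads by the exon length of a gene, here that of all its transcripts together. Slco2a1, with 13545 bases, had 128 CPM in Il22r+/+ against 99.9 CPM for Ptges3, so the places depend on these lengths. In Il22r+/+ it ran from Ptges (57.9) through Ptges3 (46.3), Ptgs2 (33.3), Slco2a1 (9.69), Ptger2 (4.99), Ptges2 (4.41), Hpgd (2.41) and Ptgs1 (1.74) to Ptger4 (0.222) and Ptgfr (0.138). The libraries of Ptger2 and Ptges2, of Hpgd and Ptgs1, and of Ptger4 and Ptgfr overlapped, and the other neighbours did not. In Il22r-/- it ran from Ptges3 (54.4) through Ptges (40.9), Ptgs2 (19.9), Hpgd (18.7), Ptges2 (4.01), Slco2a1 (3.43), Ptger2 (2.68) and Ptgfr (0.775) to Ptgs1 (0.287) and Ptger4 (0.248). There Ptgs2 overlapped with Hpgd, Ptges2 with Slco2a1, Slco2a1 with Ptger2, and Ptgs1 with Ptger4. Hpgd thus moved from the seventh place to the fourth.

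The genes whose profiles over the 6 libraries lay nearest to that of Ptgs2, by the root mean square difference of log2 CPM centred on each gene's mean, were Ankrd34a (0.08), F3 (0.08), Cpeb3 (0.09), Sap18b (0.09) and Clip3 (0.09), out of 10573 genes averaging 5 CPM or more. F3, the tissue factor that starts coagulation, had 74.1 ± 3.41 and 45.4 ± 9.06 CPM. The profiles nearest to Ptgfr, out of 10574 genes, were those of Hoxd10 (0.14), Pdlim4 (0.15), Coch (0.20), Igsf11 (0.25) and Adh1 (0.26). Adh1, an alcohol dehydrogenase, had 42.1 ± 8.35 and 248 ± 104 CPM. Each of these 10 genes passed the genotype test (edgeR adjusted p of at most 0.0262), which their choice by likeness to 2 genes that passed it largely fixed. Clip3 lost its call in edgeR without Il22r+/+ replicate 1, Il22r+/+ replicate 2 or Il22r-/- replicate 2 (adjusted p = 0.0649, 0.0721 and 0.0881, the highest over its alternatives, in a range from 4.42e-08).

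Of the genes that supply arachidonic acid to the cyclooxygenases, 8 of 12 listed had enough reads for the test, of which 3 fell and none rose, with a median log2 fold change of -0.08. Beside this and the following list counts stand the shares of all tested genes, 23.6% higher and 22.1% lower. Pla2g4a, the cytosolic phospholipase A2 that releases arachidonate, was counted at 1215, 1216 and 1283 reads in Il22r+/+ against 1174, 1381 and 1079 in Il22r-/- and did not pass the test (edgeR adjusted p = 0.397). The secreted phospholipase Pla2g5 fell from 3.72 ± 0.275 to 1.71 ± 0.748 CPM, and Acsl4, which couples arachidonate to coenzyme A, from 146 ± 1.30 to 111 ± 11.1 CPM. Anxa1, annexin A1, fell from 326 ± 13.9 to 273 ± 10.2 CPM. The call of Anxa1 was lost in 5 of 15 alternatives, including edgeR with library size alone (adjusted p = 0.123, in a range from 0.00261), and that of Pla2g5 in edgeR without Il22r+/+ replicate 1 (0.0552, in a range from 0.00175).

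Of the other terminal prostanoid synthases 2 rose and 1 fell of 7 tested, with a median log2 fold change of 0.00. Hpgds, the haematopoietic prostaglandin D synthase, rose from 10 reads in Il22r+/+ to 49 in Il22r-/- (18, 22 and 9 in replicates 1 to 3), a log2 fold change of 2.17. Whether macrophage RNA had a part in the rise of Hpgds was not tested. Ptgds, the lipocalin-type prostaglandin D synthase, fell from 8.37 ± 0.802 to 5.12 ± 0.596 CPM. The aldose reductase Akr1b3, which can also make prostaglandin F2α, rose from 74.2 ± 8.37 to 89.0 ± 2.27 CPM and lost its call in 6 of 15 alternatives, among them the DESeq2 Wald test (adjusted p = 0.0545, in a range from 0.00534 to 0.131). Ptgis, the prostacyclin synthase, had a log2 difference of 0.00 (edgeR adjusted p = 0.983).

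Among 5 tested genes of other prostanoid receptors 1 rose and 1 fell. Ptgdr2, a receptor for prostaglandin D2, went from 9, 15 and 6 reads in Il22r+/+ to 60, 86 and 84 in Il22r-/-, a log2 fold change of 2.88 ± 0.37 (edgeR adjusted p = 0.000129). Exons of Ccdc86 on the other strand cover 38.99% of its exon length, and Ccdc86 also rose, from 33.1 ± 2.99 to 62.3 ± 7.73 CPM, so without a stated strand setting the reads of the pair cannot be told apart. Ppard, a nuclear receptor that prostanoids can bind, fell from 40.2 ± 3.04 to 25.7 ± 1.16 CPM. Ptger1 and Ptger3, the other PGE2 receptors, had 1.20 ± 0.375 and 4.28 ± 0.385 CPM in Il22r+/+ and 1.19 ± 0.514 and 4.997 ± 0.943 CPM in Il22r-/-, and neither passed the test (edgeR adjusted p = 0.953 and 0.394). The prostacyclin receptor gene Ptgir had 4 reads in Il22r+/+ and 0 in Il22r-/-, too few for a test.

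Of 6 tested efflux and reduction genes, Abcc1 passed the edgeR test with all libraries, falling from 94.1 ± 3.38 to 74.5 ± 6.93 CPM. In the same list 2 genes passed when any 1 of the Il22r-/- libraries was left out, and 3 with no filter on low counts. Abcc4, the pump that exports PGE2, had a log2 difference of -0.07 (edgeR adjusted p = 0.582). In the lipoxygenase branch, which makes leukotrienes from the same arachidonate, Lta4h was 1 of 2 tested genes to pass and rose from 55.3 ± 1.30 to 68.2 ± 3.98 CPM, and 10 of 12 listed genes had too few reads.

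Downstream of EP2 and EP4, 2 of 11 tested genes of the Gs and cyclic AMP route rose and 4 fell. Over all tested genes 23.6% rose and 22.1% fell. Adcy6, an adenylyl cyclase, fell from 256 ± 5.69 to 138 ± 3.80 CPM, and Adcy3, another, from 37.0 ± 1.77 to 25.9 ± 3.58 CPM. Prkaca, a catalytic subunit of protein kinase A, fell from 165 ± 7.76 to 107 ± 2.66 CPM, and Prkacb, another, did not pass (edgeR adjusted p = 0.303). The regulatory subunits went opposite ways, Prkar2b from 124 ± 11.3 to 188 ± 2.27 CPM and Prkar1a from 604 ± 8.39 to 432 ± 26.7 CPM. Cenpo on the other strand covers 22.09% of the Adcy3 exon length.

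Downstream of FP, 4 of 10 tested genes of the Gq and calcium route rose and 3 fell. Prkca, a conventional protein kinase C, fell from 46.1 ± 2.63 to 22.9 ± 1.33 CPM and Prkcd, a member of the same family that needs no calcium, rose from 109 ± 2.75 to 158 ± 7.87 CPM. The inositol trisphosphate receptor genes went opposite ways, Itpr1 from 130 ± 4.74 to 229 ± 28.6 CPM and Itpr3 from 90.9 ± 1.94 to 56.8 ± 4.86 CPM.

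Of 7 tested cumulus genes that act with PGE2, 4 fell and 1 rose, and the median log2 fold change was -1.27. The cytokine gene Il6 had 33, 20 and 46 reads against 5, 5 and 4, the EGF-like ligand genes Ereg and Btc fell 2.93-fold and 2.87-fold, and Vcan, a matrix proteoglycan, rose from 4.63 ± 0.506 to 49.99 ± 9.98 CPM. Has2, which makes the hyaluronan of the expanded cumulus, had read counts of 26, 16 and 30 in Il22r+/+ against 14, 69 and 52 in Il22r-/- and did not pass (edgeR adjusted p = 0.218).

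Of 12 tested genes for factors known to act on Ptgs2 transcription, 6 fell and 2 rose, with a median log2 fold change of -0.21. Cebpb had 277, 233 and 323 CPM in Il22r+/+ and 91.1, 97.0 and 112 CPM in Il22r-/-. Its log2 fold change was -1.47 ± 0.12 (edgeR adjusted p = 1.07e-05). Cebpd fell from 16.3 ± 0.76 to 8.45 ± 0.664 CPM and Stat3 from 251 ± 12.5 to 134 ± 5.95 CPM, while Cebpa rose from 24.8 ± 0.177 to 44.8 ± 9.19 CPM. Usf1 and Usf2, whose products bind the E-box, had log2 differences of -0.12 and 0.12 and did not pass (edgeR adjusted p = 0.319 and 0.254). Exons on the other strand cover 20.74% of Cebpb (Tmem189) and 15% of Cebpd (Spidr). Tmem189 also fell, from 65.4 ± 0.0925 to 40.4 ± 3.26 CPM, and Spidr rose, from 9.35 ± 0.803 to 13.2 ± 1.36 CPM. Without a stated strand setting, reads in the shared stretches cannot be assigned to 1 gene. Protein levels and binding were not measured.

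**Figure D4:**
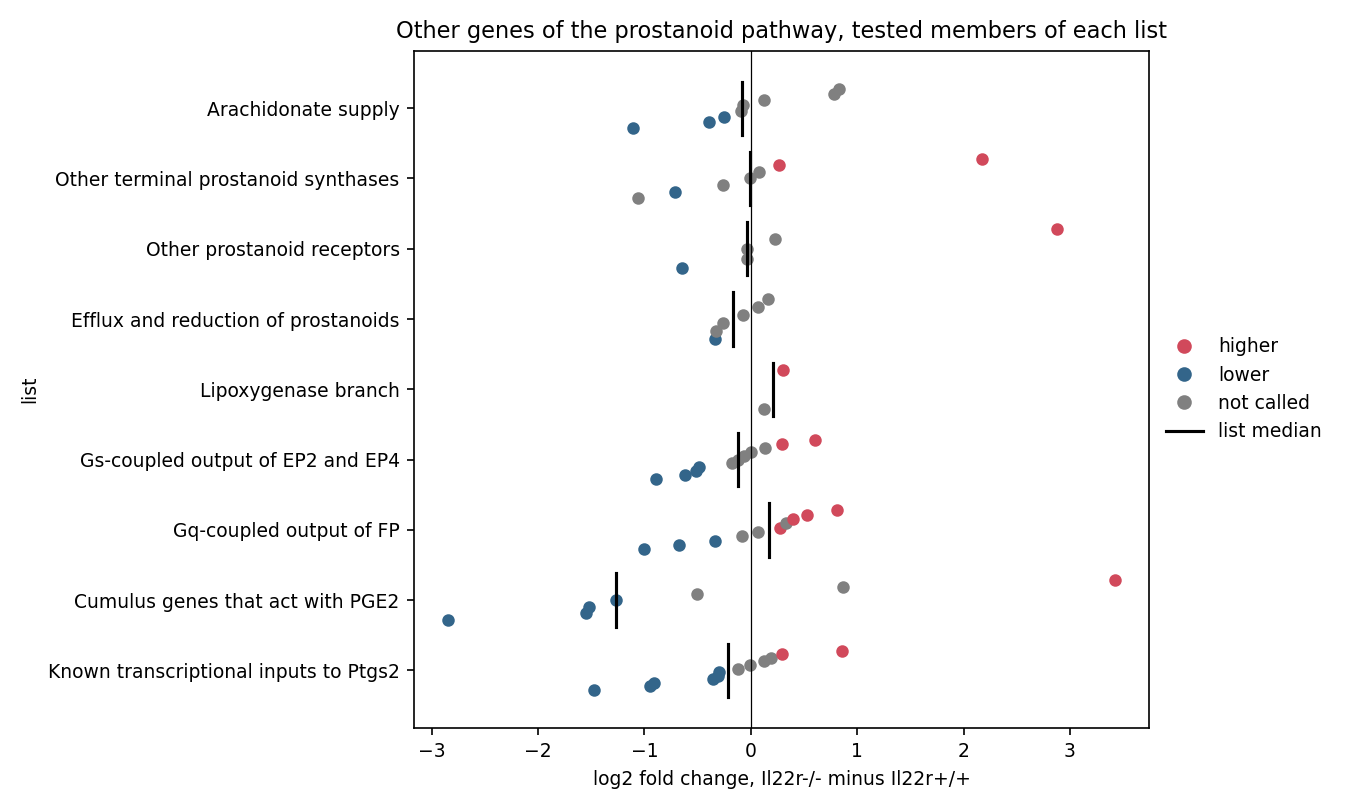
Log2 fold change of each tested gene in the 9 lists of other pathway genes; red points rose, blue points fell, grey points did not pass the test and black lines are list medians. The cumulus list has the lowest median (-1.27) and holds both Vcan (3.43) and Il6 (-2.85).

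Every called direction of the 10 members held under all 15 alternative settings. The call of Ptges3 alone was lost in some of them, and Ptger4, which was not called, changed sign in 2.

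**Figure D5:**
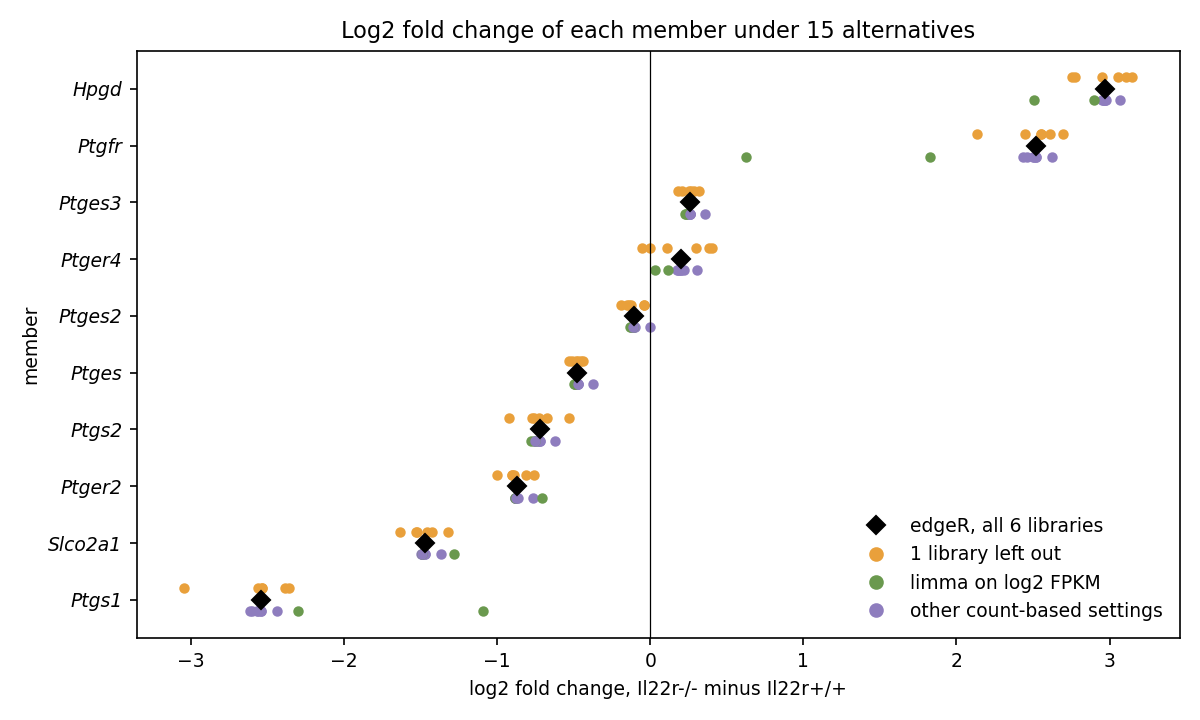
Log2 fold change of each of the 10 genes with all libraries in edgeR (black diamonds), with 1 library left out (orange), from limma on log2 FPKM with a pseudocount of 1 or 0.1 (green) and under other count-based settings (purple). The green points of Ptgfr (0.63 and 1.83) and the outer one of Ptgs1 (-1.09) lie nearest to 0, and the points of Ptger4 fall on both sides of it.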

How the data were processed

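RNA-seq of cultured granulosa cells was analysed from the authors' deposited tables of raw read counts and of FPKM for 55860 genes. The submitters' processing notes name featureCounts 1.5.0-p3 and mm10. Aligner, read filters and strand setting were not given in the sources used here. Per the file headers the tables hold gene positions and lengths. The authors' FPKM were derived from these counts, since count over length and FPKM gave 1 constant per library. It was 0.936 to 0.939 times the count total in Il22r+/+ and 1.00 to 1.05 times in Il22r-/-. FPKM compared between genotypes carry this scaling. TMM factors also differed by genotype, 0.963 to 0.967 against 1.02 to 1.05.

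Libraries were grouped by their titles. Genes passing filterByExpr (15227) were TMM-normalised and tested in edgeR 4.0.16 (robust quasi-likelihood, genotype as the only term), with Benjamini-Hochberg adjustment over all tested genes and calls at an adjusted p under 0.05. Folds are 2 to the power of the fitted log2 fold change. The step was run on simulated counts in which far fewer genes changed than were called here. Both genotypes had the same spread there, so its error rate under the conditions of these data was not tested. FPKM served for levels between genes and for ratios. Counted reads ranged from 14.95 M to 18.12 M. Replicates of a genotype differed by more than sampling noise (chi-square per gene 4.66 to 27.0). Deviations of same-numbered libraries correlated little (r = 0.03, -0.04 and -0.03, across genes), so the numbers were not taken as pairs.

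Alternatives were DESeq2 1.42.0, its size factors, library size alone, limma 3.58.1 (voom, and log2 of FPKM plus 1 or 0.1), no filter, a stricter filter (1 CPM in 3 libraries), a replicate block and single-library omissions, in R 4.3.3. Members and lists were chosen with earlier results of these data known. Named list genes were up to 4 called genes per list by size of change with a mean of at least 1 CPM, or the 2 with most reads in a list without calls, and other named genes were chosen after their values were seen. Promoters came from RefSeq (GRCm38.p6, 10 of 10 members matched), and exon overlaps from GENCODE M21, whose gene positions equal the deposited ones for the genes named.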

Additional observations from a re-analysis of the deposited data

How the results depend on the processing

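Under the 15 alternatives 7 or 8 of the 10 members were called, and 5372 to 8120 of all tested genes. Of 150 member values 142 kept their direction and side of the threshold, 6 lost a call (all Ptges3) and 2 changed sign: Ptger4, not called in any setting, had a log2 difference of -0.053 without Il22r+/+ replicate 3 and -0.00070 without Il22r-/- replicate 1, in a range up to 0.40 without Il22r-/- replicate 3. The pseudocount lowered the change of the scarce members, with Ptgs1 at -1.09 and Ptgfr at 0.63 on log2(FPKM + 1) and Ptgfr at 1.83 on log2(FPKM + 0.1). On log2(FPKM + 1) the change also moved by over 1.5 times in Vcan (3.43 to 1.75), Ptgdr2 (2.88 to 1.12), Il6 (-2.85 to -0.70), Ereg (-1.55 to -0.71), Btc (-1.52 to -0.83) and Igsf11 (2.05 to 1.41), and on log2(FPKM + 0.1) in Il6 (-2.08). Among the cell type markers the pseudocount lowered Col1a2 (5.24 to 2.32), Myh11 (4.29 to 1.35) and Actg2 (4.97 to 3.11) on log2(FPKM + 1), and Pecam1 (0.16) and Kdr (0.10) lost their calls there. Of 674 values for 45 other named genes 646 kept direction and side and 28 lost a call. Scaling by library size alone put 63.6% of calls on the higher side (51.6% with TMM) and the median log2 fold change of all tested genes at 0.13 (0.03 with TMM). With a replicate block 6405 genes and 8 members were called, and among the named genes Anxa1 and Tek lost their calls (adjusted p = 0.054 and 0.075). The log2 ratio of Ptgs2 to Hpgd changed by -3.91 to -3.46 when single libraries were left out and by -3.73 in CPM per kilobase. Among the pathway lists the count of called genes moved by over 1.5 times in 2: the other terminal synthases (3 called, 1 to 5 over the alternatives) and efflux and reduction (1, up to 3). Depth limited Ptger4, Ptgfr in Il22r+/+ and the genes with too few reads for a test.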
